A study of Mus musculus with 2 samples.

Results

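The genes described here encode the kinases of the mitogen-activated protein kinase (MAP kinase) cascade. They were taken from the array by name: every probe whose gene symbol in the series table is Map4k, Map3k, Map2k or Mapk followed by a number. The rule found 81 probes of 39 genes, of 41174 probes and 20162 named genes in all. By tier of the cascade these were 5 MAP4K, 14 MAP3K, 7 MAP2K and 13 MAPK genes. The set was chosen by name with the FLAG IP and input signals of these same arrays in view, so the members count as selected on those signals, and all of their values are given as a description, with no test.

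The FLAG IP group was RNA recovered with Anti-FLAG M2-Agarose from male gonads of MCH mouse embryos at embryonic day 14.5 that carried the transgene labelled Tg-Nanos2 enhancer-3xFLAG-Nanos2-3'UTR. The input group was RNA of male gonads of the same strain, age and transgene, with no antibody. Nanos2 encodes an RNA-binding protein of male germ cells, and the series title names the mRNAs associated with it as the question. Each group had 2 one-colour Agilent arrays, biological duplicates by the series text, and nothing further says whether they came from separate litters or pools. Both groups carried the transgene, so the comparison is of precipitated RNA with input RNA and not of animals with and without tagged Nanos2, and no mock precipitate was analysed here.

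In a MAP kinase cascade, a MAP kinase kinase kinase (MAP3K) phosphorylates a MAP kinase kinase (MAP2K), which phosphorylates a MAP kinase (MAPK), and MAP4K enzymes act upstream of the first step. The MAPKs fall into the ERK, JNK, p38 and ERK5 branches and a few atypical enzymes. ERK signalling is driven by growth factors through RAS and RAF, whereas JNK and p38 respond mainly to stress and cytokines. In the fetal mouse gonad, Map3k4 and p38 signalling are known for a role in the switch of supporting cells to the testis pathway, and p38 signalling also for a role in the male development of germ cells.

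Levels are given as a percent of the 75th percentile of the same array, and differences as log2 of FLAG IP over input with the moderated standard error (SE) of a limma fit across all genes. The 75th percentile lay at a processed signal of 55.7 and 608 on the FLAG IP arrays, against 1026 and 1038 on the input arrays. The share of spots well above background was 42.7% and 65.4% in FLAG IP, against 66.0% and 70.2% in input. FLAG IP array 1 was thus the dimmest by a wide margin, and the median SD between arrays on the log2 scale was 0.30 in FLAG IP and 0.06 in input. Nanos2 itself stood at 148% and 122% in FLAG IP, against 39.8% and 33.7% in input (log2 difference 1.88 ± 0.20 SE). Of 10 germ cell markers 4 rose (Ddx4, Dazl, Tdrd1 and Nanos2) and 1 fell (Dnd1), with a summed level of 16200% and 18200% in FLAG IP, against 8920% and 9450% in input. All 6 fetal Leydig cell, all 8 interstitial, all 5 tested erythroid and 9 of 10 Sertoli cell markers fell, while 1 Sertoli cell marker, Fgf9, rose. The Sertoli cell sum was 1280% and 1210% in FLAG IP against 5810% and 5640% in input, and the Leydig cell sum was 2010% and 1930% in FLAG IP against 13900% and 12700% in input. The interstitial sum was 6530% and 4320% in FLAG IP against 31700% and 29900% in input, and the erythroid sum was 1860% and 1470% in FLAG IP against 17300% and 16300% in input. Of 6 endothelial markers 3 fell, with a sum of 297% and 198% in FLAG IP against 694% and 552% in input, and of 5 macrophage markers 4 fell, with a sum of 102% and 91.9% in FLAG IP against 464% and 453% in input. Only the Leydig cell marker Lhcgr was not well above background on any FLAG IP array. In such bulk samples fewer cells of a type and less RNA per cell cannot be told apart, nor can either from the recovery of RNA by the precipitation, and the part of these markers in the values of the kinases was not tested.

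The MAP kinase cascade genes were spread on both sides of input. Log2 differences ran from -0.44 to 4.16 at the MAP3K tier and from -1.79 to 2.71 at the MAPK tier. They ran from -0.23 to 1.06 at the MAP4K tier and from -0.95 to 0.71 at the MAP2K tier. Of the 39 genes, 37 had a probe that cleared the background clearly on the full pair of arrays of FLAG IP, of input or of both, and these are called tested. The other genes, Map3k2 and Mapk15, did not reach that limit by any of their probes and get no difference. Among the 37, 32 passed through both groups, 4 through input alone (Map3k13, Map3k7, Map2k5 and Mapk4) and 1 through FLAG IP alone (Map3k8). The 4 genes were well above background on 1 of 2 FLAG IP arrays and Map3k8 on 1 of 2 input arrays. These genes are thus measured on part of the arrays only. FLAG IP array 1 called no probe well above background under 14.7%, and Map3k13 (10.5%) and Mapk4 (11.3%) lay under that level on it. The log2 difference was above 0 in 24 of the 37 (64.9%), against 52.1% of the 15269 genes tested. Its median was 0.38 over the 37 genes and 0.07 over all genes tested, and it ran from -1.79 to 4.16.

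Both FLAG IP arrays lay above both input arrays for 20 of the 37 genes (42.0% of all genes tested) and below them for 9 (38.2% of all genes tested). For the remaining 8 the arrays of the 2 groups overlapped. At an adjusted p of 0.05 in the fit across all genes, 12 of the 37 lay past the threshold on the higher side, where 28.0% of all genes tested did, and 3 on the lower side, where 25.4% did. Since the set was chosen with this contrast in view, nothing is read from these counts. They depended on single arrays, as did the counts over all genes tested. The median over the 37 genes was 0.356 without FLAG IP array 1 and 0.395 without FLAG IP array 2. Over all genes tested it was then -0.003 and 0.156. Without input array 1 and 2 it was 0.385 and 0.533 over the 37 genes, against 0.071 and 0.07 over all genes tested. A difference of 2-fold or more was seen upward in 8 genes (24.0% of all genes tested) and downward in 1 (23.6% of all genes tested).

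**Figure D1:**
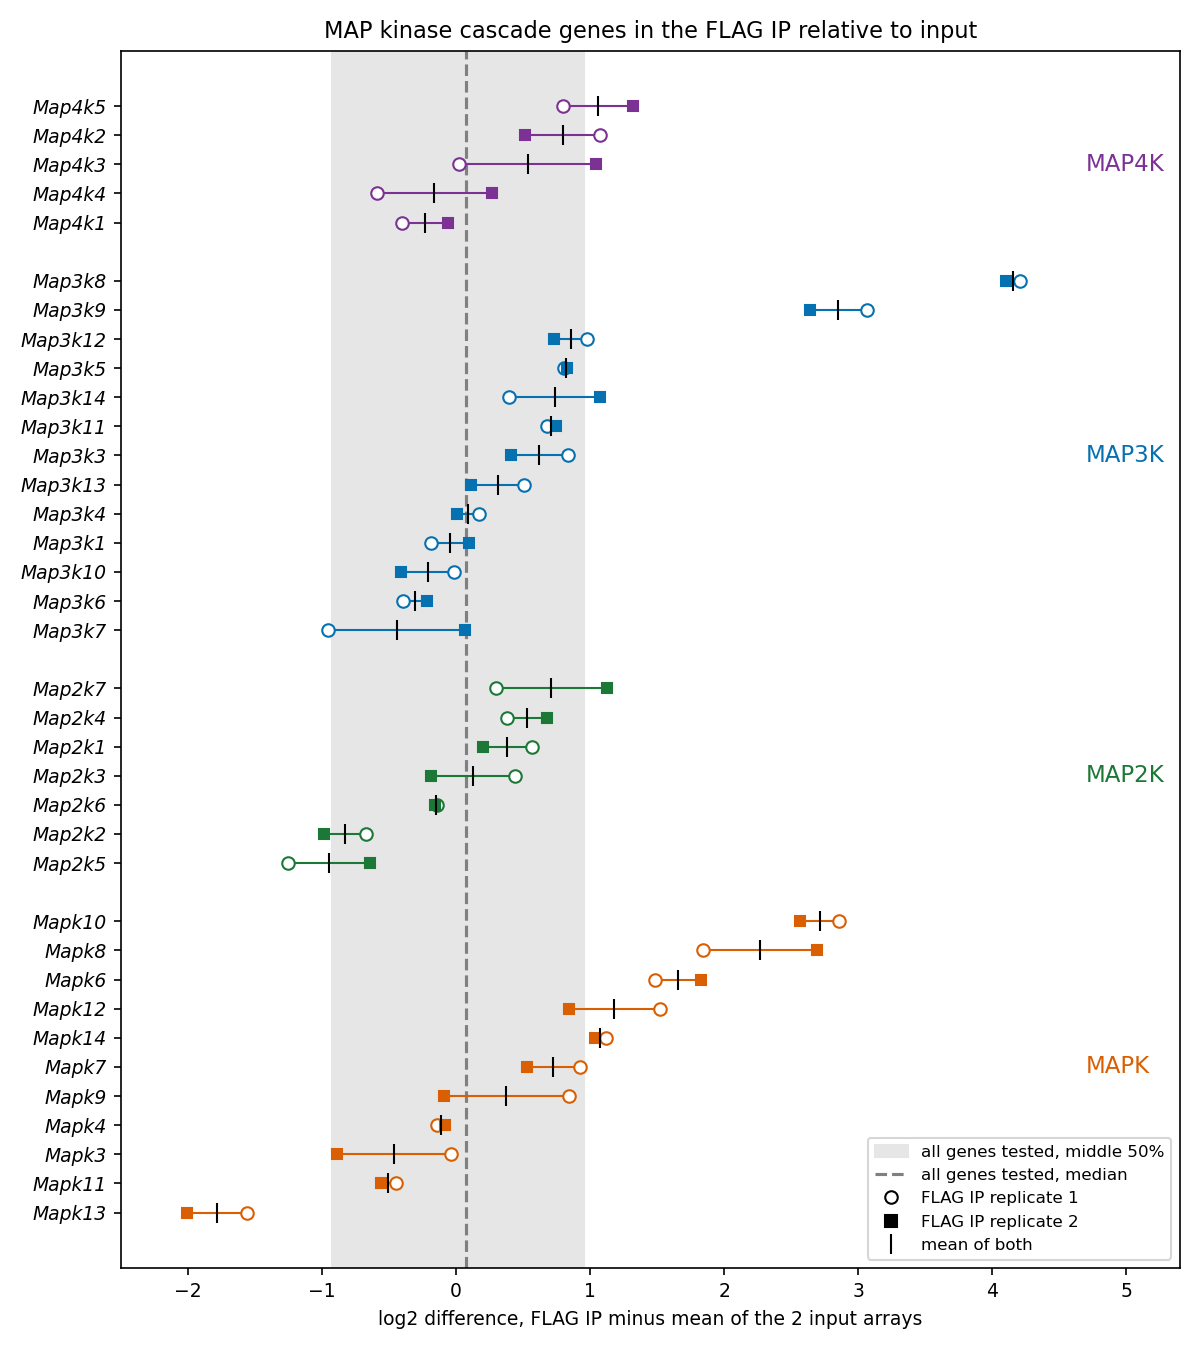
Log2 difference of each FLAG IP array (circle, replicate 1; square, replicate 2) from the mean of the input arrays, with a tick at their mean, for tested MAP kinase cascade genes by tier; the grey band holds the middle 50% of all genes tested and the dashed line their median. Map3k8, Map3k9, Mapk10 and Mapk8 lie above 2, Mapk13 at -1.79 lies lowest, and the 7 MAP2K genes lie between -0.95 and 0.71.

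At the MAP4K tier, Map4k5 stood highest relative to input and no gene reached 2-fold in the lower direction. Map4k5, a germinal centre kinase of the JNK pathway, had 754% and 1080% in FLAG IP, against 450% and 417% in input (log2 difference 1.06 ± 0.24 SE). Both FLAG IP arrays lay above both input arrays, and a further Map4k5 probe showed a larger difference of 2.03. Map4k2, also a germinal centre kinase, had 114% and 77.6% in FLAG IP, against 54.2% and 54.2% in input (0.80 ± 0.25 SE). Map4k3, a kinase known from amino acid sensing and T cell signalling, had 121% and 245% in FLAG IP, against 119% and 119% in input (0.53 ± 0.39 SE). For Map4k3, FLAG IP array 1 was scarcely above input and the difference came almost wholly from FLAG IP array 2.

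Map4k1, a kinase best known from blood cells, had 78.5% and 99.9% in FLAG IP, against 104% and 104% in input (-0.23 ± 0.20 SE). Both FLAG IP arrays lay below input, 1 of them narrowly, and Map4k1 stood at 0.08 with normexp background correction, where the median of all genes was 0.38. Map4k4, which acts upstream of JNK and in cell migration, had 1770% and 3220% in FLAG IP, against 2790% and 2560% in input (-0.16 ± 0.34 SE). Its FLAG IP arrays fell on either side of input, and its 3 tested probes ran from -1.02 to -0.04. With normexp Map4k4 stood at -0.85. The median over the 5 MAP4K genes was 0.53, and it was 0.03 in FLAG IP array 1 alone and 0.52 in FLAG IP array 2 alone.

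The MAP3K tier held the gene of the set that stood furthest above input, Map3k8. This kinase, also called Tpl2 or Cot, phosphorylates the ERK kinases Map2k1 and Map2k2 in innate immune signalling. Map3k8 had 34.1% and 31.6% in FLAG IP, against 1.59% and 2.13% in input (4.16 ± 0.22 SE), a 17.8-fold difference. The FLAG IP arrays were close together and far above input, where the probe was well above background on 1 of 2 arrays. The gene was tested through FLAG IP alone, and with normexp its log2 difference was 2.68. Its input levels lay near the lowest level marked well above background on those arrays (1.43% and 0.933%). Its fold and its rank of 8 from the top among the 15269 genes tested thus rest on input near that limit.

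Map3k9 followed. It encodes a mixed-lineage kinase, a family that activates JNK through Map2k4 and Map2k7. Map3k9 had 353% and 262% in FLAG IP, against 42.9% and 41.4% in input (2.85 ± 0.22 SE), a 7.22-fold difference. With normexp it stood at 2.29. Of its relatives, Map3k12, the dual leucine zipper kinase of neurons, had 526% and 444% in FLAG IP, against 266% and 268% in input (0.86 ± 0.18 SE). Map3k11 had 141% and 147% in FLAG IP, against 87.7% and 88.2% in input (0.71 ± 0.16 SE). For both genes the FLAG IP arrays lay above the input arrays by more than the gap between arrays of a group. With normexp Map3k12 stood at 0.49 and Map3k11 at 0.295, where the median of all genes was 0.38.

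Map3k10, a further mixed-lineage kinase, gave different pictures by its 2 probes. The probe of highest signal had 340% and 258% in FLAG IP, against 337% and 350% in input (-0.21 ± 0.21 SE). The other probe had 241% and 169% in FLAG IP, against 92.7% and 78.9% in input, a difference of 1.24. The first overlapped between the groups and the second did not. Map3k13, the partner of Map3k12 in the dual leucine zipper group, differed by 0.31 and 1.88 on its 2 tested probes, and the FLAG IP and input arrays of the first overlapped. With normexp the first probe stood at 1.32.

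Among the stress-responsive MAP3Ks, Map3k5 (ASK1, an oxidative stress sensor) had 322% and 326% in FLAG IP, against 176% and 191% in input (0.82 ± 0.16 SE). A second Map3k5 probe had 69.1% and 90.6% in FLAG IP, against 69.2% and 72% in input, a difference of 0.17 with arrays that overlapped. Its close relative Map3k6 (ASK2) had 34.6% and 39.1% in FLAG IP, against 47.0% and 44.3% in input (-0.31 ± 0.17 SE). On their brightest probes these relatives lay on opposite sides of input with no overlap of arrays. With normexp, however, Map3k6 stood at 0.28, where the median of all genes was 0.38. Map3k7 (TAK1, which links cytokine receptors to JNK, p38 and NF-kappaB) differed by -0.44 ± 0.39 SE, with 15% and 30.5% in FLAG IP on either side of 30.2% and 28.1% in input, and stood at 0.54 with normexp. Map3k14, the kinase of the non-canonical NF-kappaB pathway, differed by 0.74 ± 0.28 SE, and both of its FLAG IP arrays lay above input.

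Of the MEKK members, Map3k4 and Map3k1 stood close to input and Map3k3 above it. Map3k4, which activates p38 and JNK, had 2100% and 1880% in FLAG IP, against 1860% and 1860% in input (0.09 ± 0.16 SE). Map3k4 turned to -0.04 when arrays were scaled to their median and to -0.43 with normexp. Map3k1, which activates JNK, differed by -0.04 ± 0.19 SE, with arrays that overlapped, and stood at -0.46 with normexp. Map3k3, which acts upstream of the ERK5 branch, differed by 0.62 ± 0.22 SE on one probe and 0.70 on the other, with both FLAG IP arrays above both input arrays on each. The median over the 13 tested MAP3K genes was 0.62. Without overlap, 8 of them lay above input (42.0% of all genes tested) and 1 below (38.2% of all genes tested), and 4 overlapped.

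The 7 MAP2K genes were all tested and lay between -0.95 and 0.71. In other settings Map2k5 reached -1.08 (median scaling) and Map2k2 -1.13 (normexp), each past 2-fold. The ERK kinases Map2k1 and Map2k2 are close homologues with the same targets. Map2k1 had 437% and 340% in FLAG IP, against 296% and 295% in input (0.38 ± 0.20 SE). Map2k2 had 452% and 364% in FLAG IP, against 726% and 716% in input (-0.83 ± 0.19 SE). Neither gene's arrays overlapped, and the directions were opposite, except that Map2k1 stood at -0.01 with normexp, below the median of all genes in that setting.

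The JNK kinases both lay above input. Map2k7, which activates JNK alone, had 236% and 418% in FLAG IP, against 187% and 197% in input (0.71 ± 0.33 SE). Map2k4, which can activate both JNK and p38, had 212% and 261% in FLAG IP, against 162% and 163% in input (0.53 ± 0.19 SE). With normexp Map2k4 stood at 0.31, below the median of all genes in that setting. The p38 kinases stood nearer to input. Map2k6 had 75.1% and 74.5% in FLAG IP, against 86.2% and 79.8% in input (-0.15 ± 0.16 SE). With normexp it stood at 0.10, below the median of all genes in that setting. Map2k3 had 180% and 117% in FLAG IP on either side of 129% and 136% in input (0.13 ± 0.27 SE), with normexp at -0.34.

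Map2k5, the kinase that activates ERK5, had 17.9% and 27.3% in FLAG IP, against 40.5% and 44.9% in input (-0.95 ± 0.27 SE). The probe was well above background on 1 of 2 FLAG IP arrays, and a second tested probe differed by -0.28. Map2k5 was tested through input alone, and its difference was -0.14 with normexp, so its rank beside Map2k2 depends on the setting. The median over the MAP2K genes was 0.13, and it changed side of 0 with the processing. It was -0.01 with normexp, where the median of all genes was 0.38. With arrays scaled to their median it was -0.003, where that of all genes was -0.06.

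**Figure D2:**
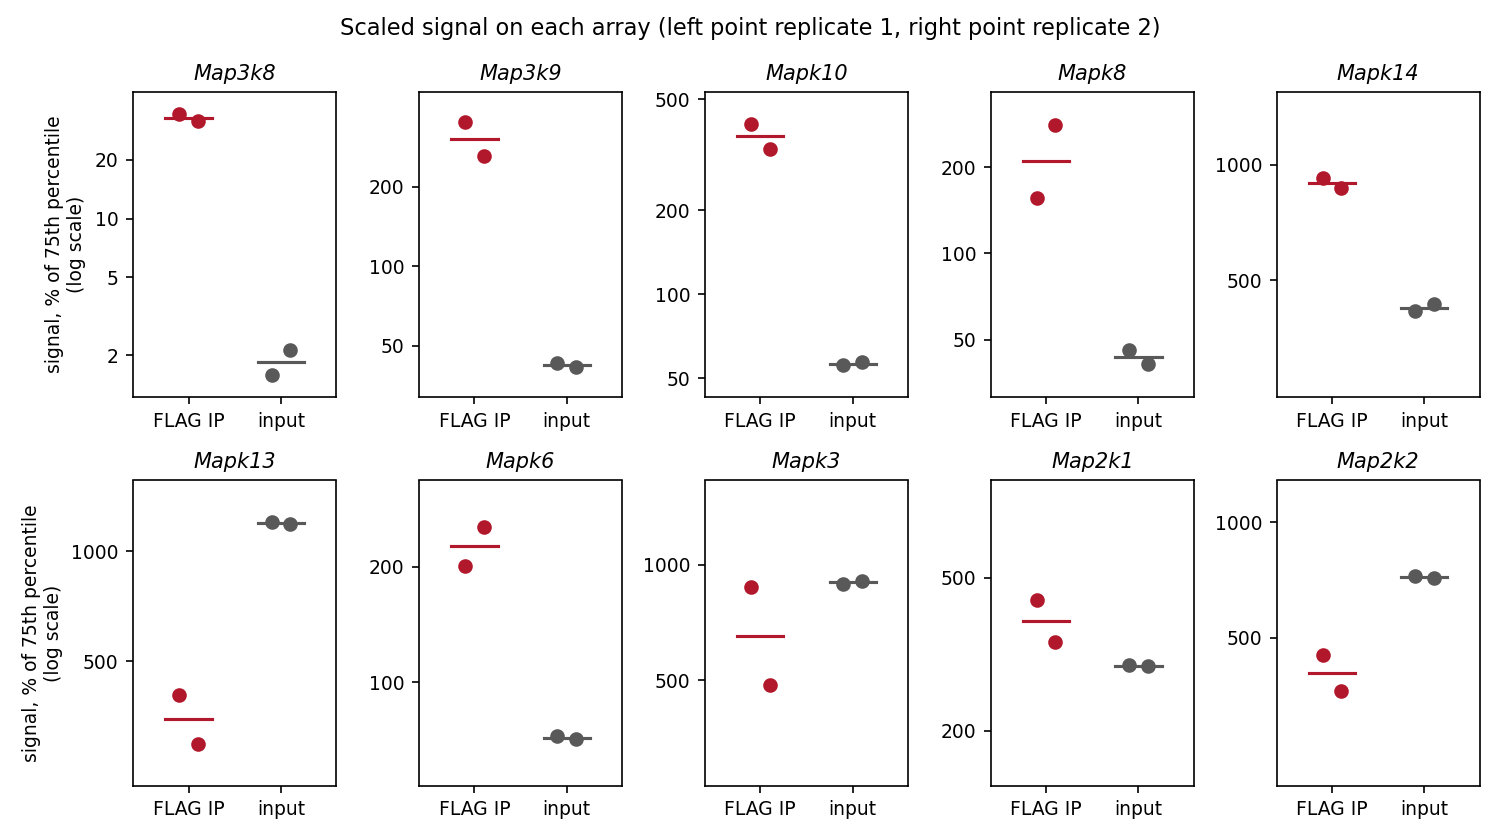
Level on each array, in percent of the 75th percentile of that array on a log scale, for 10 genes of the cascade, each panel with its own axis, points for the 2 arrays of a group and a line at their geometric mean. FLAG IP stands above input for Map3k8, Map3k9, Mapk10, Mapk8, Mapk6 and Mapk14 and below it for Mapk13 and Map2k2, and the FLAG IP points lie further apart than the input points in most panels.

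At the MAPK tier, the JNK genes Mapk10 and Mapk8 held the highest differences on their brightest probes, though not Mapk8 on the mean of its probes, and the p38 genes stood on both sides of input. The JNK genes are Mapk8 (JNK1), Mapk9 (JNK2) and Mapk10 (JNK3), of which Mapk10 is known mainly from brain, heart and testis. Mapk10 had 409% and 333% in FLAG IP, against 55.5% and 57.2% in input (2.71 ± 0.19 SE), a 6.55-fold difference. A second Mapk10 probe cleared the background on 1 FLAG IP array and no input array, so it was not tested. It had 8.14% and 10.6% in FLAG IP, against 0.652% and 0.715% in input.

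Mapk8 had 156% and 281% in FLAG IP, against 45.9% and 41.0% in input (2.27 ± 0.34 SE) on its probe of highest signal. Its other tested probes gave 1.57, 0.42 and -1.33, and the last had 15.6% and 9.64% in FLAG IP, against 34.7% and 27.5% in input. Each of these other probes was well above background on 1 of 2 FLAG IP arrays. Mapk8 was the only gene of the cascade with probes whose arrays separated without overlap in opposite directions, and the mean of its tested probes was 0.73. Mapk9 had 103% and 53.9% in FLAG IP on either side of 57.1% and 58.0% in input (0.37 ± 0.36 SE), and its other probes gave -0.78 and -1.38. Both other Mapk9 probes were well above background on 1 of 2 FLAG IP arrays. No single direction can therefore be given for Mapk9.

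The p38 genes are Mapk14 (p38 alpha), Mapk11 (p38 beta), Mapk12 (p38 gamma) and Mapk13 (p38 delta). Mapk14, the widely expressed form, had 921% and 869% in FLAG IP, against 416% and 432% in input (1.08 ± 0.16 SE). Mapk12, known mainly from muscle, had 141% and 87.7% in FLAG IP, against 47.7% and 50.4% in input (1.18 ± 0.29 SE), and its second probe gave 0.85. Both genes stood above input on both FLAG IP arrays.

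Mapk13 was the gene of the cascade furthest below input. It had 405% and 297% in FLAG IP, against 1200% and 1190% in input (-1.79 ± 0.22 SE), 3.45-fold lower in FLAG IP. Mapk11 had 19.1% and 17.7% in FLAG IP, against 26.1% and 26.0% in input (-0.51 ± 0.16 SE), but 0.50 with normexp. In the RefSeq gene table (GRCm38.p6) Mapk13 and Mapk14 are neighbours on chromosome 17, and Mapk11 and Mapk12 on chromosome 15, with 0 protein-coding genes between the members of each pair. In each pair of neighbours 1 gene lay above input and the other below it, except that normexp put Mapk11 above input as well.

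Mapk3 (ERK1), a classical ERK, had 878% and 486% in FLAG IP, against 893% and 907% in input (-0.46 ± 0.34 SE), and -0.67 on its other probe. For Mapk3, FLAG IP array 1 lay just under input and FLAG IP array 2 well under it. Mapk7 (ERK5) had 3190% and 2420% in FLAG IP, against 1740% and 1620% in input (0.73 ± 0.21 SE), and 0.88 on its other probe.

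Of the atypical MAPKs, Mapk6 (ERK3) had 201% and 254% in FLAG IP, against 72.2% and 71.0% in input (1.66 ± 0.20 SE), and 2.01 on its other probe. Its paralogue Mapk4 (ERK4) was dim, with 11.3% and 11.8% in FLAG IP, against 13.1% and 12.0% in input (-0.12 ± 0.16 SE). The Mapk4 probe was well above background on 1 of 2 FLAG IP arrays, and its difference was 0.83 with normexp. Over the 12 tested MAPK genes the median was 0.55. Without overlap, 6 genes lay above input (42.0% of all genes tested) and 4 below (38.2% of all genes tested), and 2 overlapped.

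Probes of one gene can bind different stretches of its transcripts, and 19 genes of the cascade had more than 1 tested probe. In 3 of the 19 (15.8%), Map3k10, Mapk8 and Mapk9, the probes lay on both sides of 0, against 27.6% of the 5943 genes on the array that had several tested probes. The median span between the lowest and highest probe was 0.65 in the 19 genes and 0.64 in the 5943. Taken probe by probe, 62 of the 81 probes were tested, of which 41 lay above 0 and 21 below.

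**Figure D3:**
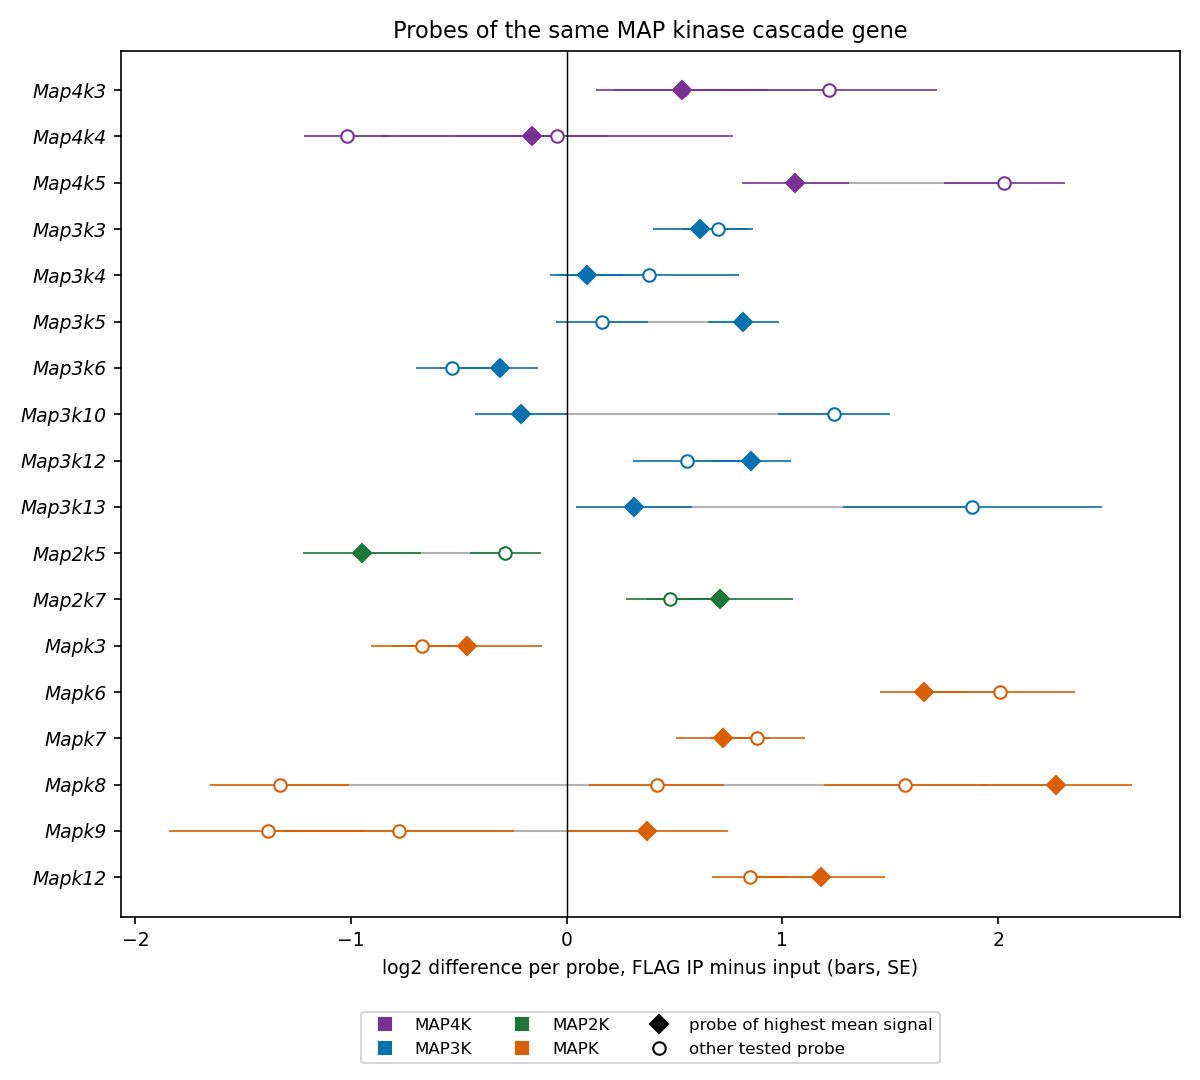
Log2 difference, FLAG IP minus input, of the tested probes of cascade genes that had several, with the SE; the filled diamond is the probe of highest mean signal, which stands for the gene. The probes of Mapk8 run from -1.33 to 2.27, while those of Mapk7, Mapk6 and Map3k3 lie close together.

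The rest of the pathway was read from lists of genes that encode activators, scaffolds, phosphatases, inhibitors and targets, with adjusted p-values from limma (Benjamini-Hochberg over all 15269 genes). These lists were also drawn up with earlier results of these arrays known, so their counts are no independent evidence of a direction. Of 93 tested genes, 31 rose (33.3%) and 22 fell (23.7%), against 28.0% and 25.4% of all genes tested, and the median was 0.43. These counts moved in both directions when single arrays were left out, as did those over all genes tested. Of the 53 genes, some were past the threshold on the same side whichever array was left out. These were Rasgrp1, Sos1, Frs2, Pak1, Mapk8ip2, Tab3, Dusp1, Dusp2, Dusp14, Rasa2, Rps6ka5, Max and Fos higher, and Pebp1, Rps6ka4, Myc and Elk3 lower. The other genes named below with an adjusted p-value were not past it in every such fit. Of the genes just listed as higher or lower, Fos, Frs2, Tab3, Myc and Rps6ka4 were not past the threshold with normexp.

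Upstream of RAF, 7 of 15 RAS and receptor-proximal genes rose and 3 fell, with a median of 0.63. Rasgrp1, an exchange factor that loads RAS with GTP, rose by 3.14 ± 0.27 SE (adjusted p = 0.00395). It had 60.5% and 91.8% in FLAG IP, against 9.17% and 7.77% in input. The exchange factors Sos1 (1.83, adjusted p = 0.00395) and Rasgrf1 (1.77, adjusted p = 0.0104) rose too. Rasgrf1 was well above background on 1 of 2 FLAG IP arrays. It was not past the threshold with normexp or with the mean of its probes. The GTPases Rras (-1.11, adjusted p = 0.0114) and Hras (-1.08, adjusted p = 0.00951) and the adaptor Shc1 (-0.97, adjusted p = 0.0199) fell.

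MAP3K and MAP4K enzymes with other names, and the p21-activated kinases listed with them, had a median of -0.10 over 12 tested genes. Pak1 (1.99, adjusted p = 0.0038), the germinal centre kinase Mink1 (1.36, adjusted p = 0.0166) and Pak2 (0.75, adjusted p = 0.0231) rose, and Pak3 (-1.24, adjusted p = 0.00623) and the RAF kinase Araf (-0.96, adjusted p = 0.0139) fell. Among the scaffolds and adaptors, 6 of 16 rose and 6 fell. The JNK scaffold Mapk8ip2 rose by 2.25 (adjusted p = 0.0038), the TAK1-binding Tab3 by 2.05 (adjusted p = 0.00594) and Lamtor3, a scaffold of Map2k1 on late endosomes, by 1.11 (adjusted p = 0.0328). The JNK scaffolds Mapk8ip3 (-1.49, adjusted p = 0.0194) and Spag9 (-1.34, adjusted p = 0.0068) fell, as did beta-arrestin Arrb1 (-1.49, adjusted p = 0.00623).

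Of 10 tested dual-specificity phosphatases, most of which dephosphorylate MAPKs, 4 rose and 1 fell. Dusp1, an immediate early phosphatase of p38 and JNK, had 1000% and 452% in FLAG IP, against 60.2% and 60.4% in input (3.48 ± 0.43 SE, adjusted p = 0.00615). Dusp14 (2.85, adjusted p = 0.0039) and Dusp2 (2.28, adjusted p = 0.00395) also rose, and Dusp4 fell by 1.57 (adjusted p = 0.0158). Among the RAS and RAF inhibitors, 3 of 11 rose and 3 fell. The RAS GTPase activators Rasa2 (2.2, adjusted p = 0.0038) and Rasa1 (0.88, adjusted p = 0.0457) and the inhibitor Spred2 (1.004, adjusted p = 0.0121) rose, whereas the RAF inhibitor Pebp1 (-1.85, adjusted p = 0.0039) and the RAS GTPase activators Nf1 (-1.07, adjusted p = 0.0337) and Rasa3 (-0.88, adjusted p = 0.0183) fell.

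Downstream of the cascade, 4 of 11 MAPK-activated kinases rose and 3 fell. Rps6ka5 (MSK1), which p38 and ERK activate, rose by 2.76 (adjusted p = 0.00397), while the related Rps6ka4 (MSK2) fell by 2.12 (adjusted p = 0.0038). The ribosomal S6 kinases also parted, with Rps6ka1 at 1.75 (adjusted p = 0.00954) and Rps6ka2 at -2.36 ± 0.63 SE (adjusted p = 0.0393). Rps6ka2 had 6.25% and 21.1% in FLAG IP, against 58.2% and 59.2% in input. It was well above background on 1 of 2 FLAG IP arrays and not past the threshold with normexp or quantile normalization. Among the MAPKAP kinases Mapkapk3 (0.89, adjusted p = 0.0242) and Mapkapk5 (0.70, adjusted p = 0.0301) rose while Mapkapk2 fell by 0.64 (adjusted p = 0.0436). Of the kinases named here, only Rps6ka5 and Rps6ka4 were past the threshold whichever array was left out. Of 18 tested genes for nuclear targets, 4 rose and 4 fell. Max, the partner of Myc, rose by 2.58 (adjusted p = 0.00396) and Myc itself fell by 1.81 (adjusted p = 0.00446). The immediate early genes Fos (2.22, adjusted p = 0.00512) and Egr1 (1.37, adjusted p = 0.0164) rose, and Elk3 (-1.83, adjusted p = 0.00522) and Mef2c (-1.13, adjusted p = 0.016) fell.

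**Figure D4:**
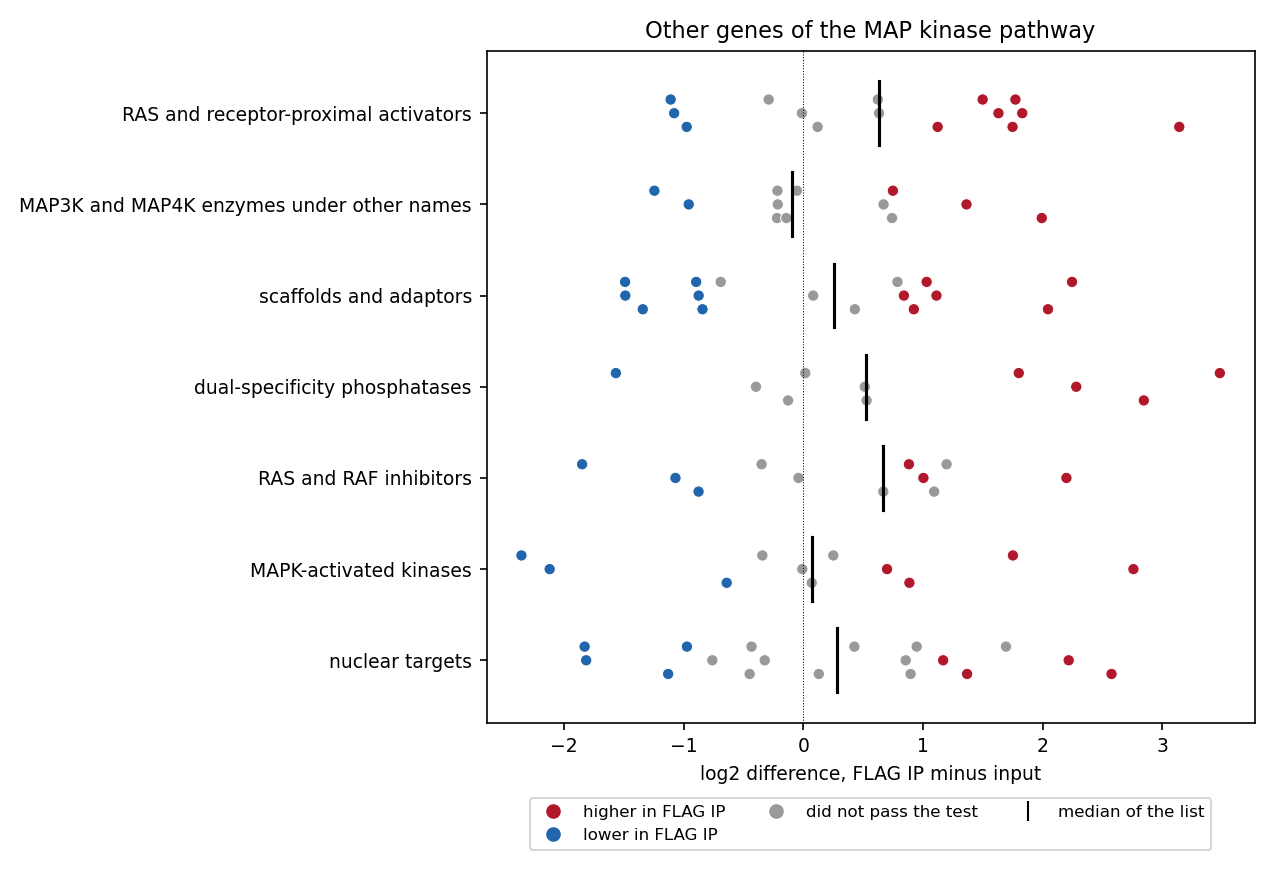
Log2 difference, FLAG IP minus input, of each tested gene of the 7 pathway lists, coloured by the limma result at an adjusted p of 0.05, with a bar at the median of each list. Every list holds genes on both sides, and the medians run from -0.10 to 0.67.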

How the data were processed

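RNA was measured on 4 one-colour Agilent arrays in 2 groups of 2, FLAG IP and input. The scanner files deposited by the authors give a linear intensity per spot, already background-corrected per the file headers; the submitters' processing notes name Agilent Feature Extraction 9.5. The authors' deposited table also holds a ratio of FLAG IP to input, used only as an alternative, and a p-value, not used here; the number of per-sample columns left unused was 0. Its raw signal equals the mean of the processed signals of both arrays, as checked on the files.

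Processed signals were taken to log2, and the log2 of the array's 75th percentile over non-control spots was subtracted. Outlier spots were set to missing and spots of a probe averaged. A probe was tested if the full pair of arrays of FLAG IP, of input or of both were marked well above background, and the tested probe of highest mean stood for its gene. Of the probes, 31004 were named through gene IDs in RefSeq GRCm38.p6, 464 through symbols, 1108 kept the file's name and 8598 had none; all 39 cascade genes matched. The comparison used limma 3.58.1 in R 4.3.3: lmFit, then eBayes, unblocked and two-sided, Benjamini-Hochberg adjusted at 0.05. There were 2 residual and 2.08 prior degrees of freedom, and the small number of arrays limits the precision. The steps were tested on simulated data.

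The cascade genes and all lists were chosen with earlier results of these data known. Any cascade gene could be named; values per array are given, in each tier, for up to 4 genes at either end of the differences among those without overlap, for genes with probes on both sides of 0, and for Mapk3, Map2k1, Map2k2, Mapk14, Mapk8 and Map2k6. Per-array values of a few other genes, and the names of Frs2, Mapkapk5 and single marker genes, were added after their values were seen. The values of 1 cascade gene are not reported here, though it is in the counts and medians. Of each pathway list, up to 3 genes at either end of those past the threshold are named. Alternatives were normexp (offset 50, on the median signal, the column the files hold), quantile normalization, median scaling, every probe whatever its signal, a limit that all 4 arrays had to clear, gene values averaged over probes, outliers kept, replicate number or slide as a block, each array left out, the authors' ratio and, chosen after seeing the data, every probe on its own.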

Additional observations from a re-analysis of the deposited data

How the results depend on the processing

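Normexp background correction gave 1270 genes higher and 1397 lower over the array (4275 and 3883 as reported), 13 and 6 pathway genes (31 and 22 as reported) and 3 and 1 cascade genes (12 and 3 as reported). It put the median of all genes at 0.38 (0.07 as reported), that of the cascade genes at 0.42 and that of the MAP3K genes at 0.44. With it 27 of the 37 cascade genes kept their side of 0; among those that turned were Map2k1 (-0.009), Map2k6 (0.10), Map3k6 (0.28), Mapk11 (0.50) and Mapk4 (0.83), and also Map4k1 (0.08), Map3k7 (0.54), Map2k3 (-0.34) and Map3k4 (-0.43). The cascade median stood 0.31 above that of all genes as reported and 0.04 above it with normexp, and differed from it by -0.02 with no filter on dim probes. Slide as a block gave 1433 and 1549 genes over the array, 14 and 4 pathway genes and 4 and 1 cascade genes; the block takes up input array 1, the only array on its slide, so this fit compares the arrays of the other slide. No filter on dim probes gave 13 pathway genes lower and 7 and 1 cascade genes. The cascade median was 0.48 with quantile normalization, 0.25 with median scaling, 0.53 with no filter, 0.53 with the filter on all 4 arrays, 0.53 with the mean of a gene's probes, 0.26 with the authors' deposited ratio and 0.51 with every probe on its own (chosen after seeing the data), which gave 19 probes higher. The MAP3K median was 0.49 with median scaling and 0.50 with the authors' deposited ratio. The causes of these moves were not tested.

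Leaving out each array in turn gave 1433 to 6846 genes higher and 1549 to 6213 lower over the array, 14 to 48 and 4 to 30 pathway genes, and 4 to 20 and 1 to 8 cascade genes. The medians ran from 0.36 to 0.53 for the cascade, 0.025 to 0.54 for MAP4K, 0.41 to 0.64 for MAP3K, -0.15 to 0.30 for MAP2K and 0.44 to 0.88 for MAPK genes. A lone array was assumed to vary like the other group, so fits with 1 FLAG IP array took their spread from the input arrays. With the replicate block, 10 cascade genes were higher and 3 lower, 33 and 21 pathway genes and 4130 and 3874 genes over the array. The deviations of same-numbered arrays correlated at 0.05, so the numbers were not shown to pair arrays. FLAG IP array 1 measured no probe under 14.7% of its 75th percentile as well above background, against 1.6% on FLAG IP array 2 and 1.43% and 0.93% on the input arrays, so dim genes have little measured range there.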

Other observations

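Genes that RefSeq now names as MAP3Ks but that the array lists under clone or locus names lay outside the rule, with 6 probes of 3 genes. Map3k21, a mixed-lineage kinase listed as BC021891, had 60.5% and 73.4% in FLAG IP, against 250% and 227% in input on one probe (log2 difference -1.84), and 151% and 78.7% in FLAG IP against 96.5% and 101% in input on the other (0.14). Its probes thus gave a clear separation below input and an overlap. Map3k20, listed as B230120H23Rik, had 6.46% and 6.69% in FLAG IP, against 7.53% and 7.78% in input (-0.22) on its tested probe. Map3k2, not measured by the probes that carry its name, had 21.5% and 28.3% in FLAG IP on either side of 26.9% and 24.4% in input (-0.05) on a probe listed as AI585793, and differed by 0.56 on another.

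The authors' deposited ratio had the same direction as the values given here for 60 of the 62 tested probes of the cascade genes.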
